A study of Mus musculus with 8 samples.

Results

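Haematopoietic stem and progenitor cells are recognised by proteins on their surface, and 9 genes for such proteins were examined here on 8 arrays of sorted mouse fetal liver cells. They are Ly6a (Sca-1), Kit, Cd34, Procr, Slamf1, Tek, Flt3, Thy1 and Esam, and their probe sets were taken as the platform annotation assigns them. That annotation gave 11 probe sets to 8 of the 9 genes, out of 45037 probe sets and 18193 genes in all. It listed none for Ly6a in the version used here, so Sca-1 itself was not analysed. The arrays came from ADAR1 null cells (ADAR1 -/-, 3 mice), heterozygous cells (ADAR1 +/-, 3 mice) and wild-type cells (2 mice), each array from the cells of a single animal of strain C57/B6. All groups were sorted in the same way, as lineage-negative cells positive for Sca-1 and Kit. The heterozygous and wild-type arrays together are called controls (5 arrays). The labels give neither the age of the fetuses nor the construction of the null allele. With 2 or 3 mice a group, precision is limited by the number of arrays throughout.

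ADAR1, encoded by Adar, is an enzyme that deaminates adenosine to inosine within double-stranded RNA. Kit and Flt3 are receptor tyrosine kinases for stem cell factor and Flt3 ligand, and Tek (Tie2) is the receptor for angiopoietins on endothelial and stem cells. Slamf1 (CD150) is a homophilic receptor used to enrich long-term stem cells, Procr is the endothelial protein C receptor, and Cd34 and Esam are surface glycoproteins shared by stem and endothelial cells. Thy1 is a small anchored glycoprotein of T cells and some stem cells. Sca-1 and several of its relatives in the Ly6 family are known to respond to interferon.

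Type I interferon acts through a short promoter element, so the 250 bases before the RefSeq gene start (GRCm38.p6) are shown for 2 of the surface genes and for Rsad2, an antiviral gene that rose in null cells. The windows are chr5:75574737-75574986 on the plus strand for Kit, chr1:194938571-194938820 on the plus strand for Cd34 and chr12:26456453-26456702 on the minus strand for Rsad2. Capitals mark the core of the interferon-stimulated response element, which is GAAA, any 2 bases and GAAA again, read on either strand.
Kit: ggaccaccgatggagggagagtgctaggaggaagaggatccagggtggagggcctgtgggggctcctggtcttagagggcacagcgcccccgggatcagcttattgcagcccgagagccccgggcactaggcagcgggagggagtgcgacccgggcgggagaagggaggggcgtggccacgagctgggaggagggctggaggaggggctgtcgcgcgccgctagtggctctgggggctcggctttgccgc
Cd34: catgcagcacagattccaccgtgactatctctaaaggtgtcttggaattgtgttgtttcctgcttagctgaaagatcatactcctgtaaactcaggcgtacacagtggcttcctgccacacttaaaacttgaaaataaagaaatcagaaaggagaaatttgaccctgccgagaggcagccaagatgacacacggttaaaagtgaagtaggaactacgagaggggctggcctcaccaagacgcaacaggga
Rsad2: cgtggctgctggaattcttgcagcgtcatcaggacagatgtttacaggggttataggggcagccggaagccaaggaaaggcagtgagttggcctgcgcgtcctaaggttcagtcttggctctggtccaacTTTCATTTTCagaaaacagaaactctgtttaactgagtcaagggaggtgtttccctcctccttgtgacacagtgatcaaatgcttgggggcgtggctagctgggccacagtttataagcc
Of the surface genes, 6 had a 250-base window in the RefSeq table. Those of Tek and Procr reached well past the listed gene start. The Tek window ended at 94739288, with a start at 94739086, and the Procr window at 155751216, with a start at 155751125. Of the 6 surface genes, 0 held the core. Of 10 interferon-induced comparison genes with a window, 6 held it. Over all 32851 windows, the share that did was 2.98%. The gamma-activated sequence, TTC, any 3 bases and GAA (a palindrome, so the same on both strands), was found in 0 of the 6 surface genes and 3 of the 10 comparison genes, against 7.02% of all windows. Such matches describe these letters only.

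Adar itself was read first, as the gene targeted in these mice. It has 3 probe sets here. The brightest (1434268_at) read 59.7, 144 and 176 linear intensity units on the null arrays, 13.1, 16.1 and 9.89 on the heterozygous arrays and 7.66 and 17.6 on the wild-type arrays. It was thus higher, not lower, on the arrays labelled null, by 3.22 ± 0.41 log2 units (SE) against all controls (limma, adjusted p = 0.0170), and the call was lost without heterozygous array 1 or 3 (adjusted p = 0.0630 and 0.0610) and with 32 units added to each value (0.0545). The other Adar probe sets differed by 0.24 ± 0.40 (1425405_a_at, adjusted p = 0.835) and -0.16 ± 0.20 (1439276_at, adjusted p = 0.778). Since the sources used here do not place these probe sets relative to the altered part of the gene, the transcript does not check the genotypes, and null, heterozygous and wild type stand throughout for the arrays labelled so.

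No surface gene passed the test between any of the groups. Of the 11 probe sets, 0 reached an adjusted p of 0.05 by limma in null against wild type, null against heterozygous, null against all controls or heterozygous against wild type. Over all probe sets the same threshold was passed by 0.326%, 0.502%, 0.582% and 0.00222% in these comparisons. At an unadjusted p under 0.05 there were 2, 2, 3 and 0 of the 11, beside 7.63%, 11.3%, 11.5% and 5.37% of all probe sets. Each of these counts other than 0 includes Thy1, which had no measured level. A share of 0 among 11 is near these backgrounds and is not a result particular to the surface genes. Against all controls, null cells read higher on average for 3 genes by their brightest probe set (Tek, Cd34 and Flt3). Flt3 was above background on only 3 of the 8 arrays, so its direction is weakly based. Null cells read lower for 3 genes (Kit, Slamf1 and Esam), while Procr and Thy1 had no measured level. The median difference was -0.08 log2 units over the 6 and 0.23 with the fitted values of the other two, beside 0.03 over all genes.

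Several of these genes gave little signal on any array. Background on an array was the brightest of 27 control probe sets for Bacillus transcripts, which mouse RNA does not contain. It was 7.40 to 9.29 linear intensity units on the null arrays and 6.20 to 8.15 on the control arrays. Of the 11 probe sets, 4 were above background on all 8 arrays, 5 on some and 2 on none. The 4 were those of Cd34, Tek and Esam and the brighter one of Kit. In bulk samples such as these, fewer cells of a type and less RNA per cell cannot be told apart.

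**Figure D1:**
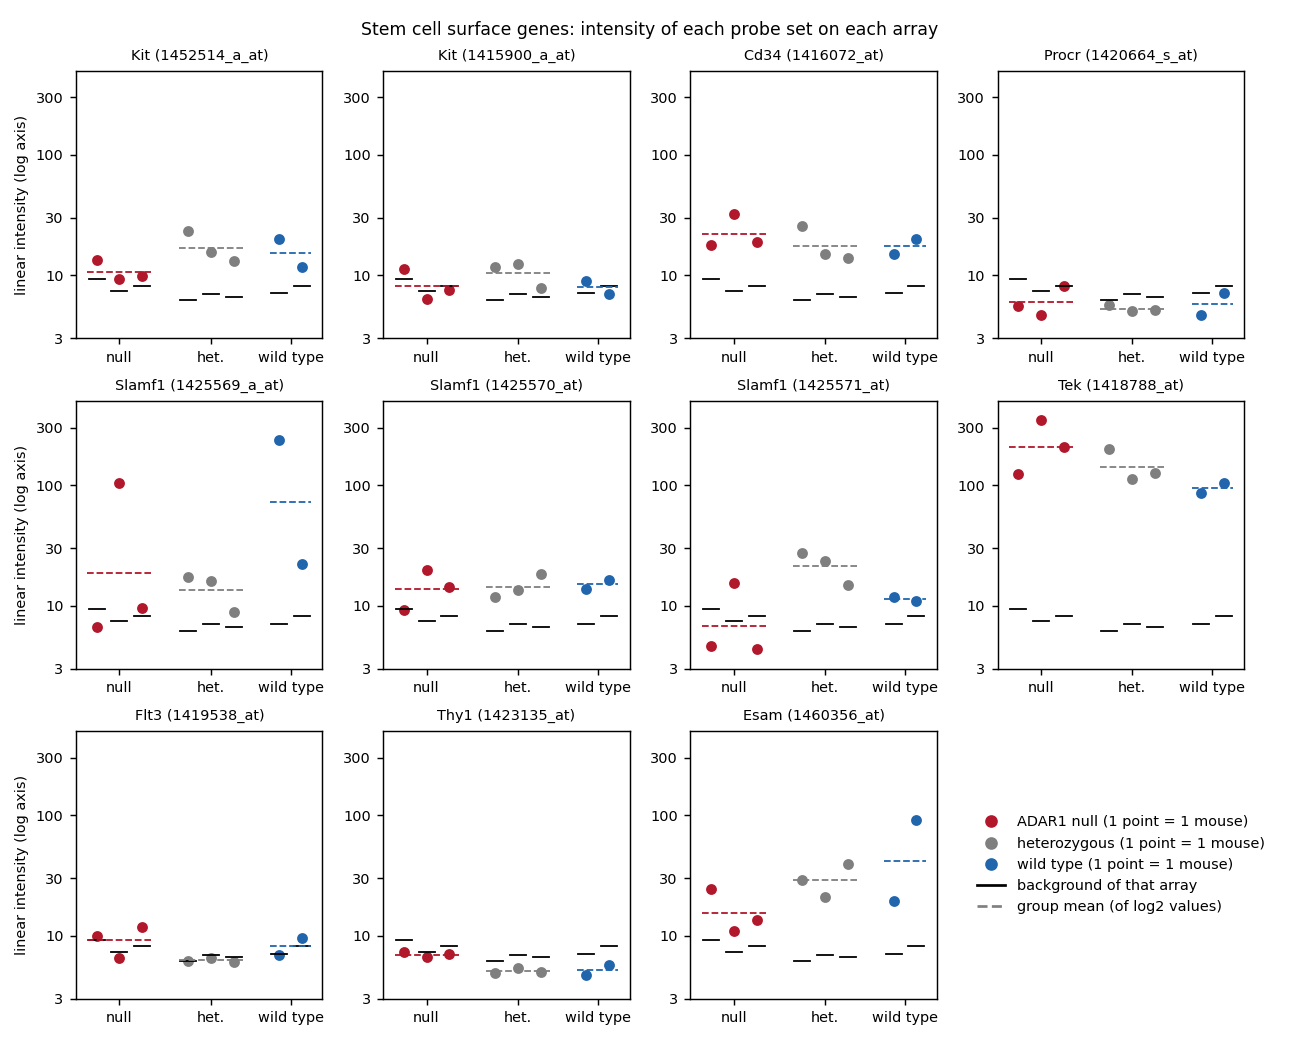
Linear intensity (log axis) of the 11 probe sets on each array, with null, heterozygous and wild-type arrays from left to right. Points are single mice, dashed lines are group means of the log2 values and short black lines are the background of that array. Tek lies well above background on all 8 arrays, and Procr and Thy1 on none.

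Among the receptors, Kit was examined first, since the cells were sorted on its protein. Its brighter probe set (1452514_a_at) read 13.3, 9.33 and 9.86 linear units on the null arrays, 23.5, 15.7 and 13.2 on the heterozygous arrays and 20.2 and 11.7 on the wild-type arrays. Of the null arrays 2 read below every control array, and the third lay within the control range. The null readings lay not far above the backgrounds of those arrays (9.29, 7.40 and 8.21). The mean log2 intensity was 3.42 ± 0.28 in null cells and 4.03 ± 0.42 in controls (SD, n = 3 and 5). The difference of -0.61 ± 0.26 log2 units (SE) did not pass (limma, adjusted p = 0.428, unadjusted p = 0.0466). Its 95% interval ran from -1.20 to -0.01. The other Kit probe set (1415900_a_at) read 6.34 to 11.2 in null cells and 7.01 to 12.5 in controls, above background on 5 of the 8 arrays. It differed by -0.21 ± 0.26 (adjusted p = 0.775). The highest Kit reading on any array was 23.5 units, which is no measure of the Kit protein used for the sort.

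Flt3, which marks multipotent progenitors with lymphoid potential, was above background on 3 of the 8 arrays. These were null arrays 1 and 3 and wild-type array 2, which also had the highest backgrounds (9.29, 8.21 and 8.15). Flt3 read 10.04, 6.50 and 11.9 linear units in null cells, 6.16, 6.58 and 6.01 in heterozygous cells and 6.98 and 9.61 in wild-type cells. None of the heterozygous arrays was above its background, so the group has only an upper limit there. On the fitted scale null and control cells differed by 0.40 ± 0.24 log2 units (adjusted p = 0.552, interval -0.15 to 0.95).

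Tek had the highest intensities among these probe sets, though levels of different probe sets are not comparable as amounts of RNA. It read 123, 350 and 207 linear units on the null arrays, 201, 112 and 126 on the heterozygous arrays and 85.1 and 103 on the wild-type arrays. All null arrays and all heterozygous arrays read above both wild-type arrays, and null and heterozygous arrays overlapped. The mean log2 intensity was 7.69 ± 0.76 in null, 7.15 ± 0.44 in heterozygous and 6.55 ± 0.20 in wild-type cells (SD, n = 3, 3 and 2). None of the steps in that order passed the test. Null exceeded wild type by 1.15 ± 0.45 log2 units (adjusted p = 0.623, unadjusted p = 0.0412) and all controls by 0.79 ± 0.38 (adjusted p = 0.479, interval -0.09 to 1.67). Without null array 2 the difference from controls was 0.41.

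Slamf1 was measured by 3 probe sets, and they disagreed. The brightest (1425569_a_at) read 6.59, 103 and 9.61 linear units on the null arrays, 17.3, 15.9 and 8.86 on the heterozygous arrays and 235 and 22.3 on the wild-type arrays. A single null array and a single wild-type array stood far above the others, and the highest control array read 26.5 times the lowest. The mean log2 intensity was 4.22 ± 2.15 in null cells and 4.72 ± 1.83 in controls (SD, n = 3 and 5). The difference of -0.50 ± 1.25 log2 units had an interval from -3.39 to 2.39 (adjusted p = 0.891), so a change of several-fold in either direction would not be detectable with this probe set.

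The second Slamf1 probe set (1425570_at) did not share those peaks. It read 9.20, 19.6 and 14.1 in null cells and 11.7 to 18.2 in controls, with a difference of -0.09 ± 0.26 (adjusted p = 0.906, interval -0.68 to 0.51). The third (1425571_at) read 4.65, 15.3 and 4.40 in null cells, 27.1, 23.6 and 14.7 in heterozygous cells and 11.7 and 10.9 in wild-type cells. On this probe set null arrays 1 and 3 were below every control array and at background, while null array 2 lay within the control range. Null differed from heterozygous by -1.64 ± 0.51 log2 units (adjusted p = 0.329, unadjusted p = 0.0152) and from all controls by -1.28 ± 0.50 (adjusted p = 0.397). Without null array 2 the difference from heterozygous passed the threshold (-2.22, adjusted p = 0.0344), the one case in which a probe set of these genes did so under an alternative. Null array 2 was also the null array with the highest reading on each of the other 2 Slamf1 probe sets.

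Among the glycoproteins, Cd34 read 17.8, 32.2 and 18.8 linear units on the null arrays, 25.7, 15.0 and 13.8 on the heterozygous arrays and 15.2 and 20.0 on the wild-type arrays. The 3 groups overlapped. Null exceeded controls by 0.34 ± 0.28 log2 units (adjusted p = 0.654), with an interval from -0.30 to 0.98, and heterozygous cells stood 0.00 ± 0.37 from wild type (adjusted p = 0.999). Without null array 2 the difference from controls was 0.07.

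Esam, a cell adhesion molecule of the tight junctions of endothelium, read 24.5, 10.9 and 13.5 linear units in null cells, 28.9, 20.9 and 39.4 in heterozygous cells and 19.3 and 91.9 in wild-type cells. Null arrays 2 and 3 were below all 5 control arrays, and null array 1 was within their range. The difference from controls was -1.13 ± 0.53 log2 units (adjusted p = 0.472, interval -2.36 to 0.11), and -0.76 (adjusted p = 0.429) without wild-type array 2, which had the highest reading. On that same array the macrophage marker C1qb and the endothelial marker Lyve1 also had their highest readings, at 434 and 131 linear units. Other endothelial markers went the other way there. Pecam1 and Tie1 had their lowest readings on that array, at 11.9 and 27.0 units, and Kdr read 56.8, within its range on the other arrays. The part of macrophages or endothelial cells in the Esam value was not tested.

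Procr and Thy1 were at or below background on all 8 arrays and have no measured level. Procr read 4.71 to 8.12 linear units in null cells and 4.70 to 7.19 in controls. Thy1 read 7.33, 6.62 and 7.0 in null cells, 4.91, 5.37 and 5.01 in heterozygous cells and 4.76 and 5.73 in wild-type cells. Thy1 was the 1 of the 11 probe sets whose null and control arrays did not overlap, a pattern held by 8.19% of all probe sets. It is counted above among the probe sets with an unadjusted p under 0.05 against controls (0.00389, adjusted p = 0.175 by limma). The same holds against wild type (unadjusted p = 0.0227) and heterozygous (0.00961, both by limma). The backgrounds of the null arrays, given above, were also higher than those of most control arrays, and every Thy1 reading was below the background of its own array. No difference or fold is therefore given for either gene.

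**Figure D2:**
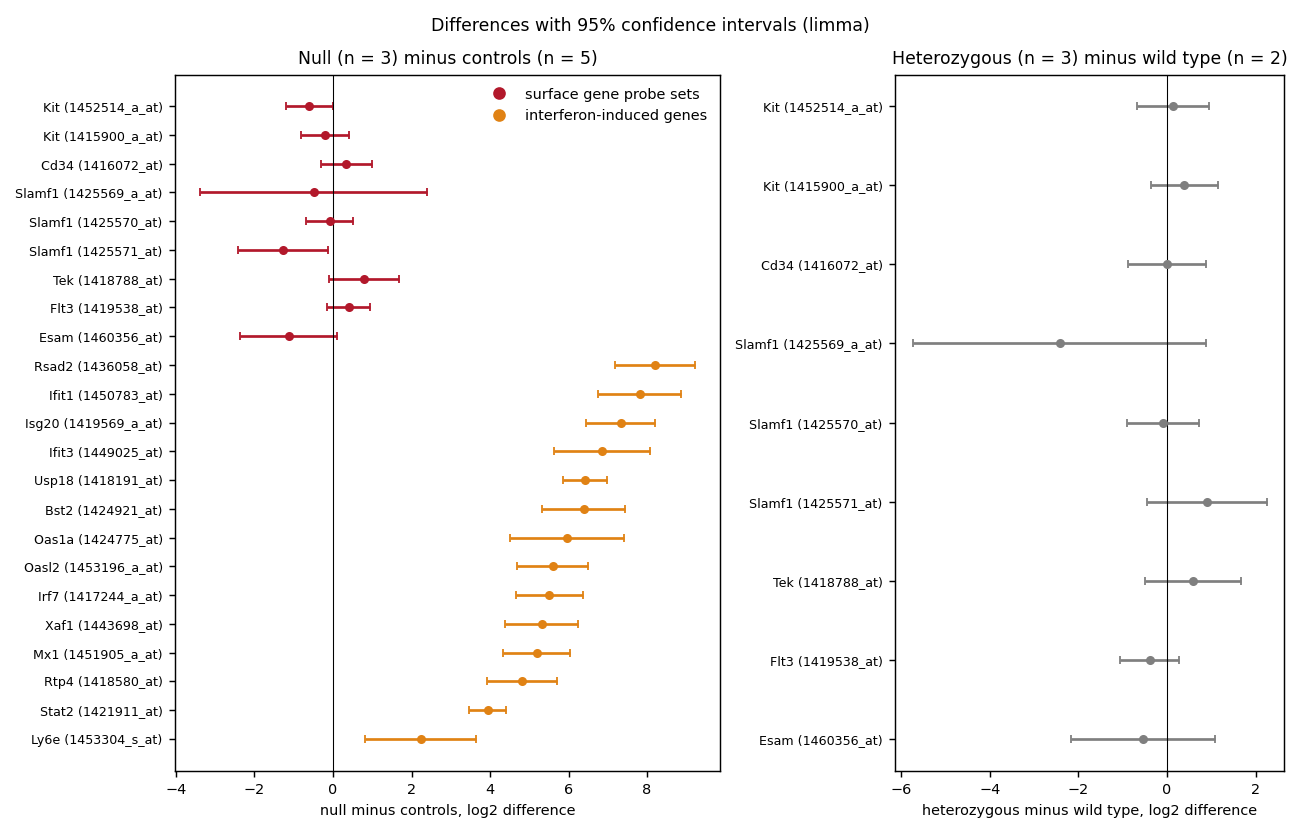
Log2 differences with 95% intervals from limma. On the left are null minus controls for the 9 surface gene probe sets above background on at least 1 array and, in orange, 14 interferon-induced genes, and on the right heterozygous minus wild type for the same 9. Surface gene differences from controls lie between -1.28 and 0.79, and those of the interferon-induced genes between 2.23 and 8.21.

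The loss of 1 copy of Adar was compared with wild type in the same fit. Differences of heterozygous minus wild type ran from -2.43 (Slamf1, 1425569_a_at) to 0.90 (Slamf1, 1425571_at), with adjusted p from 0.893 to 0.999. The 2 extremes are thus opposite readings of a single gene. Kit differed by 0.14 ± 0.34 log2 units (interval -0.67 to 0.95) and Tek by 0.60 ± 0.46 (interval -0.49 to 1.68).

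For scale, 15 interferon-induced genes were taken as a comparison list, chosen with their response in these data known, so their direction is no independent evidence. Of the 14 measured, 13 rose and 0 fell in null against all controls, beside 0.555% of all genes that rose, and their median difference was 5.78 log2 units. Stat2, a transcription factor of the interferon pathway, read 127, 135 and 99.8 linear units in null cells and 5.79 to 9.85 in controls (3.94 ± 0.20, adjusted p = 0.000166). Stat2 had the smallest difference of the 13 that passed. The other measured gene of the list, Ly6e, did not pass (2.23 ± 0.61 log2 units, interval 0.82 to 3.64, adjusted p = 0.224 by limma). The 95% intervals of the 9 surface gene probe sets with a measured level reached at most 2.39, in the variable Slamf1 probe set (1425569_a_at). That bound lies above the Ly6e difference.

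The Ly6 family was examined because it holds Sca-1. Of its 18 listed genes 13 had a probe set of their own. In null against heterozygous 1 rose and 0 fell, beside 0.456% of all genes that rose. That gene was Ly6e, an interferon-responsive relative of Sca-1, which read 163, 130 and 219 linear units in null cells, 14.1, 19.2 and 36.3 in heterozygous cells and 65.5 and 86.8 in wild-type cells. Null arrays read above all control arrays, and the wild-type arrays above all heterozygous ones. The difference was 2.96 ± 0.38 log2 units from heterozygous (adjusted p = 0.0334), and this call was lost without any 1 array except heterozygous array 3 and null array 2 (adjusted p up to 0.153). It was also lost with a pseudocount of 32 (0.0515), array weights (0.0804), a mean-variance trend (0.0771) and the arrays of the 2 groups alone (0.0615). With the mean of its probe sets Ly6e differed from heterozygous by 1.74 (adjusted p = 0.228). The difference was 1.14 ± 0.42 from wild type (adjusted p = 0.568) and 2.23 ± 0.61 from all controls (adjusted p = 0.224). Ly6m and Ly6i differed from controls by 0.46 ± 0.19 and 0.44 ± 0.27 log2 units (adjusted p = 0.423 and 0.561). Ly6m was above background on only 3 of the 8 arrays, 1 in each group, and Ly6i on 6. Ly6h was above background on no null array and on 1 control array. The family's median difference from controls was 0.21.

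Ligands and signalling partners of the surface receptors gave no call either. Of 16 measured, 0 passed in null against controls by limma, and with p unadjusted 1 was higher and 0 lower at the 0.05 level, beside 5.51% and 7.98% of all genes. The median difference was -0.16. Gab2, an adaptor that acts downstream of Kit and other receptors, read 259, 518 and 373 linear units in null cells, 259, 186 and 177 in heterozygous cells and 94.9 and 208 in wild-type cells (1.07 ± 0.35 log2 units, adjusted p = 0.315). Tie1, the orphan partner of Tek, differed by 1.12 ± 0.61 (adjusted p = 0.520), the phosphatase Ptpn6 (SHP-1), which restrains Kit signalling, by -1.39 ± 0.74 (adjusted p = 0.517) and the ubiquitin ligase Cbl by -0.58 ± 0.38 (adjusted p = 0.581).

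Of 29 other surface genes of stem and progenitor cells, 0 passed in null against controls by limma. With p unadjusted, 2 were higher and 3 lower at the 0.05 level, beside the same 5.51% and 7.98% of all genes, and the median difference was 0.06. Csf1r, the macrophage colony-stimulating factor receptor, was at background on all null arrays (5.20, 6.14 and 6.82) and read 55.9, 57.1 and 120 in heterozygous cells and 6.87 and 36.5 in wild-type cells. With wild-type array 1 taken at its reading, Csf1r was at least 4.77-fold lower in null cells than in controls. That difference did not pass (limma, adjusted p = 0.268). Without wild-type array 1, which was itself below its background of 7.09, it passed (at least 7.39-fold lower, adjusted p = 0.0217). In Cd244a and Cd27 a single null array carried the difference. Cd244a, a receptor of the Slamf1 family, read 344, 4.96 and 5.60 linear units in null cells and 4.99 to 6.78 in controls. Cd27, a member of the tumour necrosis factor receptor family, read 6.92, 6.08 and 319 in null cells and 4.54 to 43.9 in controls. Jam3, a junctional adhesion molecule, read 13.8, 19.8 and 86.6 in null cells and 6.82 to 17.5 in controls (1.25 ± 0.59 log2 units, adjusted p = 0.473). The highest null readings of Cd27 and Jam3 were both on null array 3, that of Cd244a on null array 1 and those of the 3 Slamf1 probe sets on null array 2.

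Markers of other cells of the fetal liver were measured beside these genes, as intensities summed over each list. Macrophage markers (10 genes, of which Adgre1, Cd5l and Vsig4 were at background on every array) summed to 63.4 to 78.1 linear units on the null arrays and 145 to 679 on the control arrays. With p unadjusted (limma), 4 of the 10 were lower and 1 higher in null against controls at the 0.05 level. The shares over all genes were 7.98% and 5.51%, and the median difference of the list was -0.42 log2 units. Hepatocyte and hepatoblast markers (8 genes) summed to 67.1 to 88.0 on the null arrays and 207 to 1119 on the control arrays. Of these 8, Afp fell in null against controls (-5.11 ± 0.79 log2 units, adjusted p = 0.0403), and 0 rose, beside 0.379% of all genes that fell. The call on Afp was lost without either null array 2 or 3, without any heterozygous array and without wild-type array 2 (adjusted p = 0.0608 to 0.122). It was also lost with quantile (0.0675) or cyclic loess normalization (0.0685), a pseudocount of 32 (0.142) and array weights (0.0817). Apoa2 and Afp fell in null against heterozygous (adjusted p = 0.0223 and 0.0354), beside 0.313% of all genes. Both calls were lost without heterozygous array 1 or 3 or null array 3, Afp also without heterozygous array 2 or null array 2 and Apoa2 without null array 1 (adjusted p up to 0.169 for Afp and 0.119 for Apoa2). Both were lost with a pseudocount of 32 (0.0787 for Afp and 0.0939 for Apoa2), and Afp with quantile (0.0709) or cyclic loess normalization (0.0802). C1qb (-3.69 ± 0.65, adjusted p = 0.0665), C1qc (at least 5.92-fold lower, adjusted p = 0.181), Mrc1 (at least 2.39-fold lower, adjusted p = 0.181), Alb (-2.56 ± 0.44, adjusted p = 0.0616) and Apoa1 (-2.39 ± 0.87, adjusted p = 0.364) did not pass against controls. C1qb did pass with either filter on low values (0.0416 and 0.0328), the trend (0.0450), the brightest probe set per gene (0.0479) and without wild-type array 2 (0.0140). Alb passed with either filter (0.0412 and 0.0352) and with the brightest or mean probe set per gene (0.0439 and 0.0339). Apoa2 passed against controls without wild-type array 1 (0.0392).

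Endothelial markers bear on Tek, Esam, Procr and Cd34, which endothelium also expresses. Their 10 genes summed to 530 to 815 units on the null arrays and 328 to 536 on the control arrays, ranges that overlapped from 530 to 536, with Emcn at background throughout. Within the list Lyve1 differed by -1.66 ± 0.74 log2 units (adjusted p = 0.452), Pecam1 by 1.10 ± 0.60 (adjusted p = 0.521) and Kdr by 0.86 ± 0.21 (adjusted p = 0.171), none past the threshold. The part of endothelial cells in the Tek and Esam values was not tested.

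Mast cells express Kit and lymphoid cells can express Thy1. Mast cell markers (8 genes) summed to 57.3 to 67.7 on the null arrays and 52.1 to 60.0 on the control arrays, with Fcer1a, Mcpt4 and Ms4a2 at background on every array. Hdc differed most (0.57 ± 0.25, adjusted p = 0.432). Lymphoid markers (8 genes) summed to 58.8 to 67.3 and 52.3 to 62.0, with Cd3g at background on every array. For 8 genes, the mast cell and lymphoid sums lie near background. Background was 7.40 to 9.29 units a probe set on the null arrays and 6.20 to 8.15 on the control arrays. Neither sum is therefore read as an amount of those cells. Rag1, above background on no control array, read 14.3, 7.41 and 7.66 in null cells (limma against controls, adjusted p = 0.399). The reading on null array 3 was below the background of that array (8.21), so no fold is given for Rag1. A list of lineage markers chosen here, not taken from the labels (8 measured), summed to 67.1 to 117 on the null arrays and 66.7 to 101 on the control arrays. Within it Ptprc, which is present on most blood cells and so is not specific to lineage cells, differed most (0.54 ± 0.50, limma, adjusted p = 0.693). Of these 3 lists 0 members passed in any comparison with null by limma. Erythroid markers (8 genes) summed to 654 to 813 and 711 to 1371. In this list Ermap, an erythroid membrane protein, differed by -2.70 ± 0.46 (adjusted p = 0.0609), Klf1 by -1.15 ± 0.86 (adjusted p = 0.629), and Gata1 rose in null against wild type (1.24 ± 0.15, adjusted p = 0.0355), as did 0.39% of all genes. Ermap did pass with quantile (0.0347) or cyclic loess normalization (0.0478), either filter (0.0395 and 0.0330), the trend (0.0477), the brightest or mean probe set per gene (0.0431 and 0.0328), and without null array 1 (0.0468) or 2 (0.0193). The Gata1 call was lost without each of the 8 arrays in turn (adjusted p = 0.0523 to 0.107), with either filter (0.0769 and 0.126), array weights (0.0986), the trend (0.595) and the 2 groups alone (0.293).

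**Figure D3:**
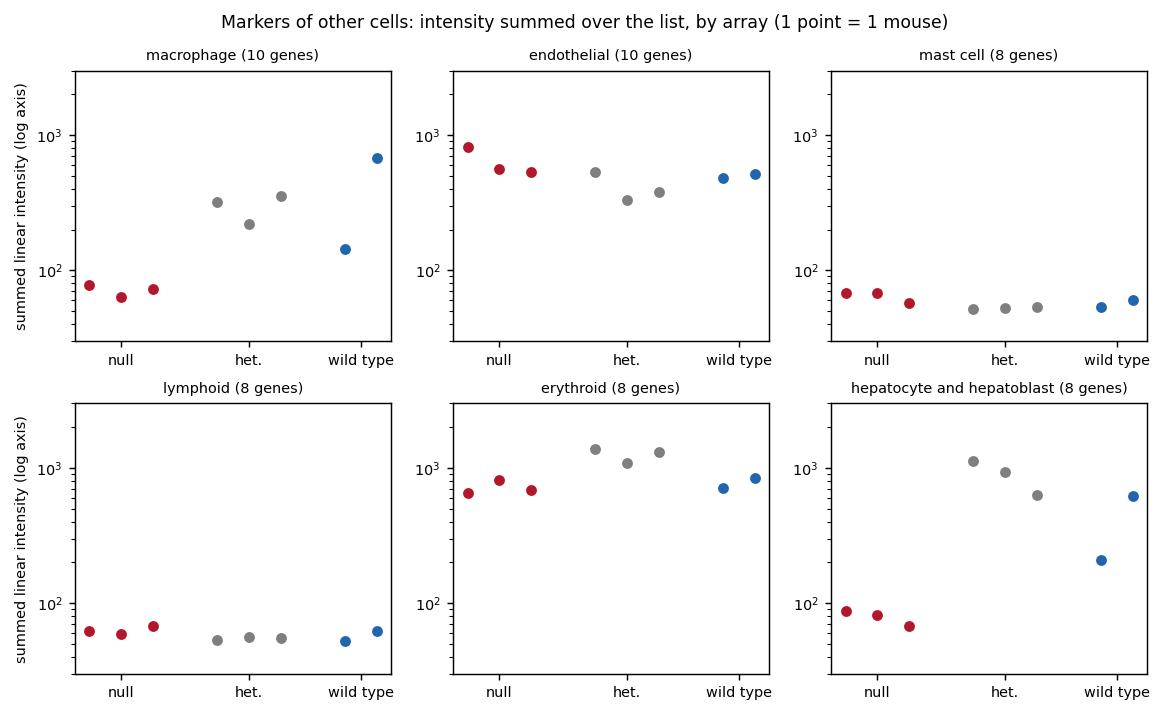
Linear intensity (log axis) summed over each list of markers of other cells, with null, heterozygous and wild-type arrays from left to right and 1 point a mouse. Macrophage and hepatocyte sums on the 3 null arrays lie below those of all 5 control arrays. Mast cell and lymphoid sums overlap and lie near background.

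The pattern of Kit over the arrays was compared with that of 18185 other genes, by the root mean square difference of log2 values centred on their own means over the 8 arrays. The nearest was Nrbp1, a pseudokinase adaptor protein, at 0.134 log2 units, beside a spread of Kit itself about its mean of 0.439. Nrbp1 read 54.2, 37.6 and 42.8 linear units in null cells, 83.8, 78.3 and 59.8 in heterozygous cells and 90.8 and 49.2 in wild-type cells. Amelx (0.157), Eif4b (0.163), Fkbp11 (0.164) and 2010320M18Rik (0.173) followed. Of these, 2010320M18Rik was above background only on heterozygous array 1 and wild-type array 1. Fkbp11 was below background on null arrays 2 and 3 and wild-type array 2. Amelx read 8.20 on null array 3, at the background of that array (8.21). The likeness is a description over 8 arrays.

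**Figure D4:**
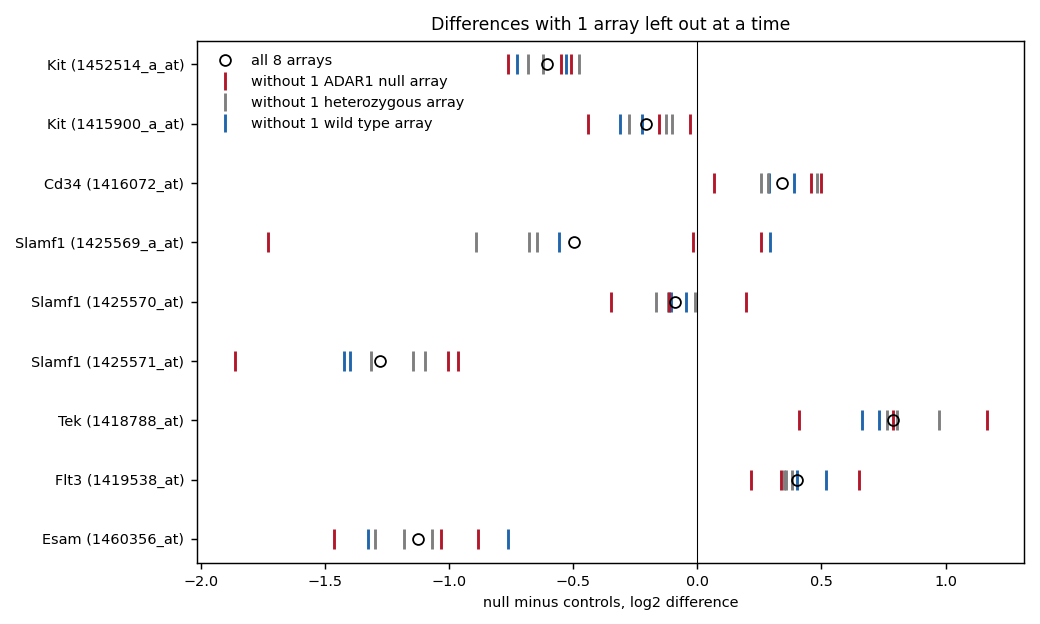
Null minus controls, in log2 units, for each of the 9 surface gene probe sets above background on at least 1 array, with all 8 arrays (circles) and with 1 array left out at a time (bars, coloured by the group of the array left out). Slamf1 (1425569_a_at) ran from -1.73 to 0.29, and Tek stayed between 0.41 and 1.17.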

How the data were processed

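Each deposited value is the intensity of 1 probe set on a linear scale, which the authors summarised with RMA per the submitters' processing notes; its version is not given in the sources used here. RNA was labelled with biotin by an amplification kit, per the labels. Of 45101 probe sets 64 controls were left out, and 34945 of the rest named 1 gene, 932 several and 9160 none here. Symbols were updated by gene number. Log2 of the deposited values was fitted with limma 3.58.1 (R 4.3.3, lmFit and eBayes) on 3 groups, or on null against 5 controls; p was two-sided and Benjamini-Hochberg adjusted over all 45037 probe sets, with a threshold of 0.05. A gene is represented by its brightest probe set. A fold marked "at least" was computed against background where a group had no array above it. The method was tested on simulated data. Members, lists and the rule for named genes (all members, up to 4 genes a list with the largest difference from controls, and any called) were chosen with earlier results of these data known. Adar, and the alternatives for it, were added after its values were seen. The labels give no batch and no shared replicate numbers.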

Additional observations from a re-analysis of the deposited data

Results flagged for a closer look

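Control arrays standing far from the rest were sought among 59 probe sets of the surface genes, Adar and the named genes of the lists. An array was taken as outlying where its gap to the nearest other control array, in log2 units, was over 0.71 of the whole range of the 5. Slamf1 (1425569_a_at) read 235 linear units on wild-type array 1, against 8.86 to 22.3 on the other 4 control arrays. Cd27 read 43.9 units on wild-type array 2 and 4.54 to 6.70 on the others. Ptprc read 56.1 units on heterozygous array 1 and 16.8 to 23.1 on the others. Alas2, the erythroid enzyme that begins haem synthesis, read 13.8 units on wild-type array 1 and 5.57 to 7.15 on the others. These are 4 readings on 3 arrays. Chance would flag about 1 in 20 groups, or about 3 of the 59 probe sets.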

How the results depend on the processing

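No paired analysis was possible because the labels give no replicate numbers shared across groups. No surface gene passed the threshold by its brightest probe set under any alternative run, which were quantile and cyclic loess normalization, a pseudocount of 32, filters above background and at the median level, array weights, a mean-variance trend, the brightest or mean probe set per gene, the arrays of the 2 groups alone and each array left out in turn. Procr and Thy1, among others, dropped out under the filters. A lone wild-type array was assumed to vary like the other groups.

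Counts of all probe sets past the threshold depended more on the setting. In null against wild type there were 147, and 62 with the pseudocount, 90 with array weights, 95 with the trend and 4 with the 2 groups alone; with 1 array left out they ran from 65 to 340. In null against heterozygous there were 226, and 126 with the pseudocount, 140 with the trend and 63 to 581 with 1 array left out. In null against controls there were 262, and 156 to 792 with 1 array left out. In heterozygous against wild type there was 1, with 5 under the pseudocount, 0 with the median filter, the trend, either value per gene or the 2 groups alone, and 0 to 164 with 1 array left out.

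Among values past no threshold, some changed sign when 1 array was left out. Over these 8 fits null minus wild type ran from -0.27 to 0.34 for Procr. Null minus controls ran from -0.10 to 0.29 for Procr, -0.35 to 0.19 for Slamf1 (1425570_at), -0.075 to 0.68 for Cma1, -0.094 to 0.44 for Dntt, -0.13 to 2.93 for Cd244a and -0.40 to 2.46 for Cd27. Heterozygous minus wild type ran from -0.25 to 0.53 for Kit (1452514_a_at), -0.45 to 0.16 for Procr, -1.67 to 0.58 for Esam and -0.46 to 0.74 for Adar (1434268_at). Procr was at background on all arrays, so no direction is read from its values. Changes of sign smaller than 1 SE are not counted. With the mean of probe sets Cd4 differed from controls by 0.051 in place of -0.20. Signal near background limits Kit (1415900_a_at), Flt3, Slamf1 (1425571_at), Procr and Thy1. It also limits the null readings of the brighter Kit probe set (1452514_a_at), though these were above background. Slamf1 (1425569_a_at and 1425570_at) was below background on null array 1.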
